A study of Mus musculus with 6 samples.

Results

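The change in uterine gene expression between 6 h and 12 h after a single dose of estradiol was examined, using the 2 arrays of those times out of 6 in the series. The array titled 12 h was set against the array titled 6 h, gene by gene. The vehicle array served to sort the changes into early responses that faded and changes in genes still under 2-fold from vehicle at 6 h. All mice were C57BL/6 females, labelled as 10 to 11 weeks old, ovariectomised and killed 7 days later, and the estradiol groups received 0.05 µg of estradiol (E2) per mouse under the skin, with sacrifice after 1, 3, 6, 12 or 24 h. Vehicle mice were killed 24 h after their injection, so vehicle is not matched to 6 h or 12 h in time since injection. Whole uteri were trimmed of adhering tissue and pooled before RNA extraction, and each group was read on 1 Affymetrix U74Av2 array. The labels state 10 mice without saying whether per group or in all, and the housing text, read by itself, would make the animals older than the age label. With 1 array per group there is no replicate and no test, and every statement below describes these arrays, with a fixed minimum of 2-fold for calling a gene higher or lower. In a whole organ, fewer cells of a type and less RNA per cell cannot be told apart.

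Estradiol acts in the uterus mainly through the nuclear receptor ESR1. The known course of the response to a single dose starts with immediate early transcription factors, swelling of the tissue and a surge of the machinery for making RNA, ribosomes and protein. DNA synthesis and division of epithelial cells follow later. Many transcripts of early regulators are known to be short-lived, and early regulators often switch on their own inhibitors.

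The tissue label was checked against genes that define the uterus. Hoxa11, a homeobox gene of the uterine stroma, had signals of 2168 at 6 h, 2615 at 12 h and 2662 on vehicle. Esr1 itself read 550 at 6 h, 457 at 12 h and 527 on vehicle, and Krt19, an epithelial keratin, 2064, 2814 and 2198. The array labelled 3 h did not show these genes, with 15 for Hoxa11, 25.2 for Esr1 and 4.6 for Krt19. It read 22112 for the granulocyte gene S100a8 and 18759 for the skeletal muscle actin Acta1. Its rank correlation with the other arrays was 0.843 to 0.857, against 0.929 to 0.968 over the 10 other pairs. That array does not enter the ratio of 12 h to 6 h, its values are given below only as those of the array labelled 3 h, and with it left out of scaling, floor and choice of probe sets all 94 of 94 named genes past 2-fold stayed past it. Other settings cost more of these calls: 52 of the 88 with a value did so under the higher floor (60th percentile), 58 of 94 with an offset in its place and 77 of 94 with the median over probe sets. Signals below the detection floor of 142.8 count as not measured, and a fold against such a value is written "at least".

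Most genes at least 2-fold from vehicle at 6 h were still so at 12 h, with the same vehicle array in both ratios. Of 5870 genes measured on the 6 h or the 12 h array, 108 reached 2-fold higher at 12 h (1.84% of those measured) and 87 reached 2-fold lower (1.48%), and the median log2 ratio of 12 h to 6 h was 0.02. The rank correlation between both arrays was 0.966. Against vehicle, 416 genes were higher at 6 h (6.91%) and 548 lower (9.1%), and at 12 h 404 stood above it (6.71%) and 455 below (7.55%). At 1 h, 56 genes were above vehicle (0.928%) and 23 below (0.381%), and at 24 h 224 (3.69%) and 232 (3.82%). From 12 h to 24 h, 189 genes were higher (3.16%) and 162 lower (2.71%). These comparisons share arrays, so an error on the 6 h array enters both the ratio of 6 h to vehicle and that of 12 h to 6 h. An error on the vehicle array, or its mismatch in time, enters both ratios to vehicle and makes them look alike. The rank correlation covers all probe sets and does not measure how much of the response lasted.

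**Figure D1:**
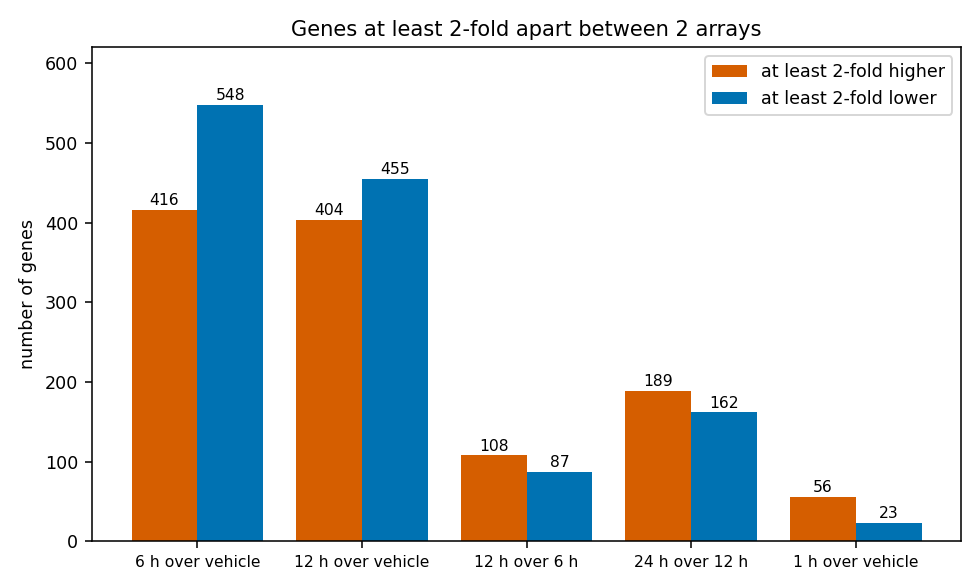
Number of genes at least 2-fold higher (orange) or lower (blue) in each comparison of 2 arrays, with the count above each bar; the vertical axis starts at 0. The step from 6 h to 12 h holds 108 and 87 genes, fewer than either time against vehicle and more than 1 h against vehicle.

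Of the 416 genes above vehicle at 6 h, 43 had faded, that is, were at least 2-fold lower at 12 h than at 6 h. Another 7 were at least 2-fold higher still, and 366 lay within 2-fold of their 6 h value. At 12 h, 267 of the 416 were still at least 2-fold above vehicle. Of the 548 below vehicle at 6 h, 39 had recovered by at least 2-fold, 6 were at least 2-fold lower still and 456 stayed within 2-fold; the remaining genes were below the floor at both times. At 12 h, 320 of the 548 were still at least 2-fold below vehicle. Among genes that were under 2-fold from vehicle at 6 h, 62 were newly higher at 12 h and 38 newly lower. Newly refers to the ratio of 12 h to 6 h and not to vehicle. Of the 62, 37 were at least 2-fold above vehicle at 12 h and 25 were under 2-fold from it. Of the 38, 18 were at least 2-fold below vehicle at 12 h and 20 were under 2-fold from it. These 6 classes hold 0.733%, 0.119%, 0.664%, 0.102%, 1.06% and 0.647% of the genes measured, in the order faded, higher still, recovered, lower still, newly higher and newly lower.

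**Figure D2:**
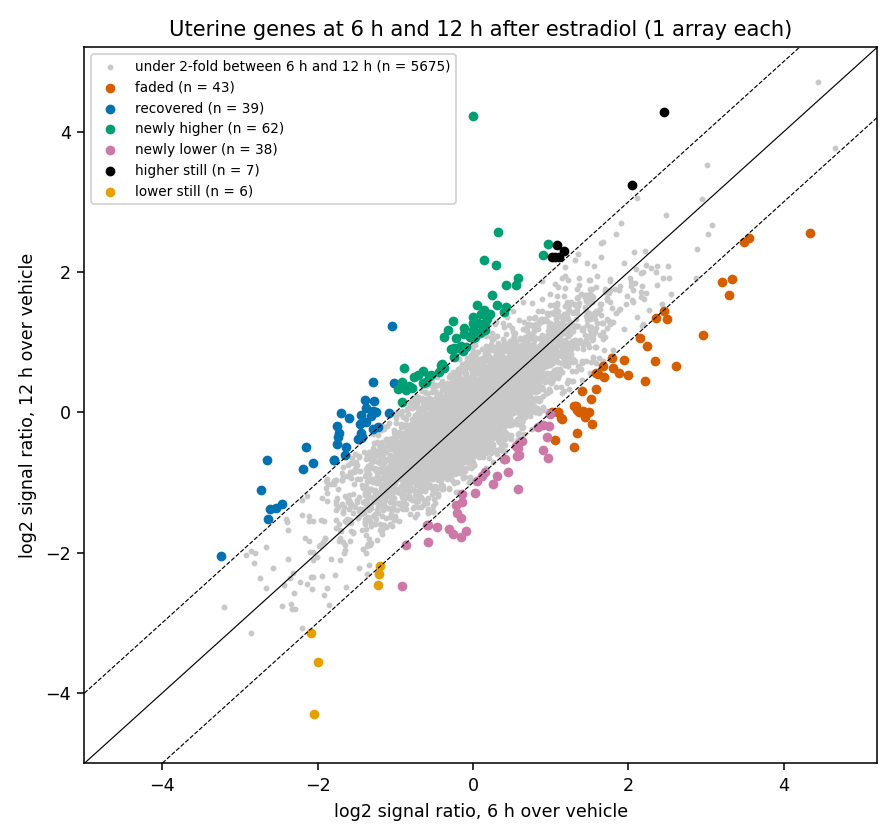
Each point is a gene measured at 6 h or 12 h, with its log2 ratio to vehicle at 6 h (horizontal) and at 12 h (vertical); a ratio whose arrays are both below the floor is drawn at 0, the solid line marks equality and the dashed lines 2-fold. Coloured points are the 195 genes outside the dashed lines, sorted into 6 classes; the vehicle array enters both axes, which makes points lie along the diagonal.

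Immediate early genes were the list with the most members in the faded class, 7 of 43. Of 33 such genes measured, 9 were at least 2-fold lower at 12 h and none higher, 26 lay below 0, and the list median was -0.45, beside 0.02 over all genes. At 6 h, 12 of them were at least 2-fold above vehicle, and at 12 h 3 were. The list median against vehicle was 0.63 at 6 h and 0.01 at 12 h. Log2 ratios of 12 h to 6 h ran from -1.80 to 0.55 over the list. The list was written with earlier results of these data known, and the faded class takes only genes high at 6 h. Its height at 6 h and its share of the faded class are therefore not independent results.

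Nr4a1, an orphan nuclear receptor and classic immediate early gene, had signals of 303 on vehicle, 638 at 1 h, 663 on the array with the 3 h label, 747 at 6 h, 215 at 12 h and 210 at 24 h. It was 3.48-fold lower at 12 h than at 6 h, below vehicle at both late times. Egr2, a zinc finger transcription factor, read 252 on vehicle, 238 at 1 h, 150 on the array with the 3 h label, 637 at 6 h, 205 at 12 h and 113 at 24 h. Only the 6 h array was high for this gene, and the value at 12 h was 3.10-fold lower. Egr1, its relative, was 2.71-fold lower, from 1551 at 6 h to 573 at 12 h; with 832 on vehicle and 1381 at 1 h it stayed under 2-fold from vehicle at 6 h and counts as newly lower.

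Gadd45g, a stress-induced growth arrest gene, was among the strongest early responses. It read 407 on vehicle, 9583 at 1 h, 330 on the array with the 3 h label, 8211 at 6 h, 2390 at 12 h and 684 at 24 h. Its fall from 6 h to 12 h was 3.44-fold, yet the 12 h signal remained 5.88-fold above vehicle. Plk2, a polo-like kinase induced by serum and stress, followed a like course with 658, 5309, 477, 6451, 2092 and 878 on the same arrays in the same order. It was 3.08-fold lower at 12 h and still 3.18-fold above vehicle. Gadd45a, the p53-induced member of the Gadd45 family, was 2.47-fold lower, from 1316 to 532.

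Further lower genes act in cytokine and growth factor signalling, and were not taken from a single list. Socs1, which blocks JAK-STAT signalling, read 321 on vehicle, 1025 at 1 h, 310 on the array with the 3 h label, 1958 at 6 h, 505 at 12 h and 347 at 24 h. It was high at 1 h and 6 h, 3.88-fold lower at 12 h, the largest drop of the faded class. Errfi1, a feedback inhibitor of the EGF receptor, had 856, 3724, 1019, 2291, 867 and 829, and its 12 h value was back within 1.01-fold of vehicle. A second probe set of Errfi1 gave a log2 ratio of -1.31, beside -1.40 for the main probe set. Bcl3, a nuclear partner of NF-kappaB, was at 87.9 on vehicle and 90.5 at 1 h, both below the floor, and read 1114 at 6 h, 307 at 12 h and 339 at 24 h, 3.63-fold lower at 12 h. Osmr, the oncostatin M receptor subunit, was 3.07-fold lower, from 954 at 6 h to 311 at 12 h, with 490 on vehicle.

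**Figure D3:**
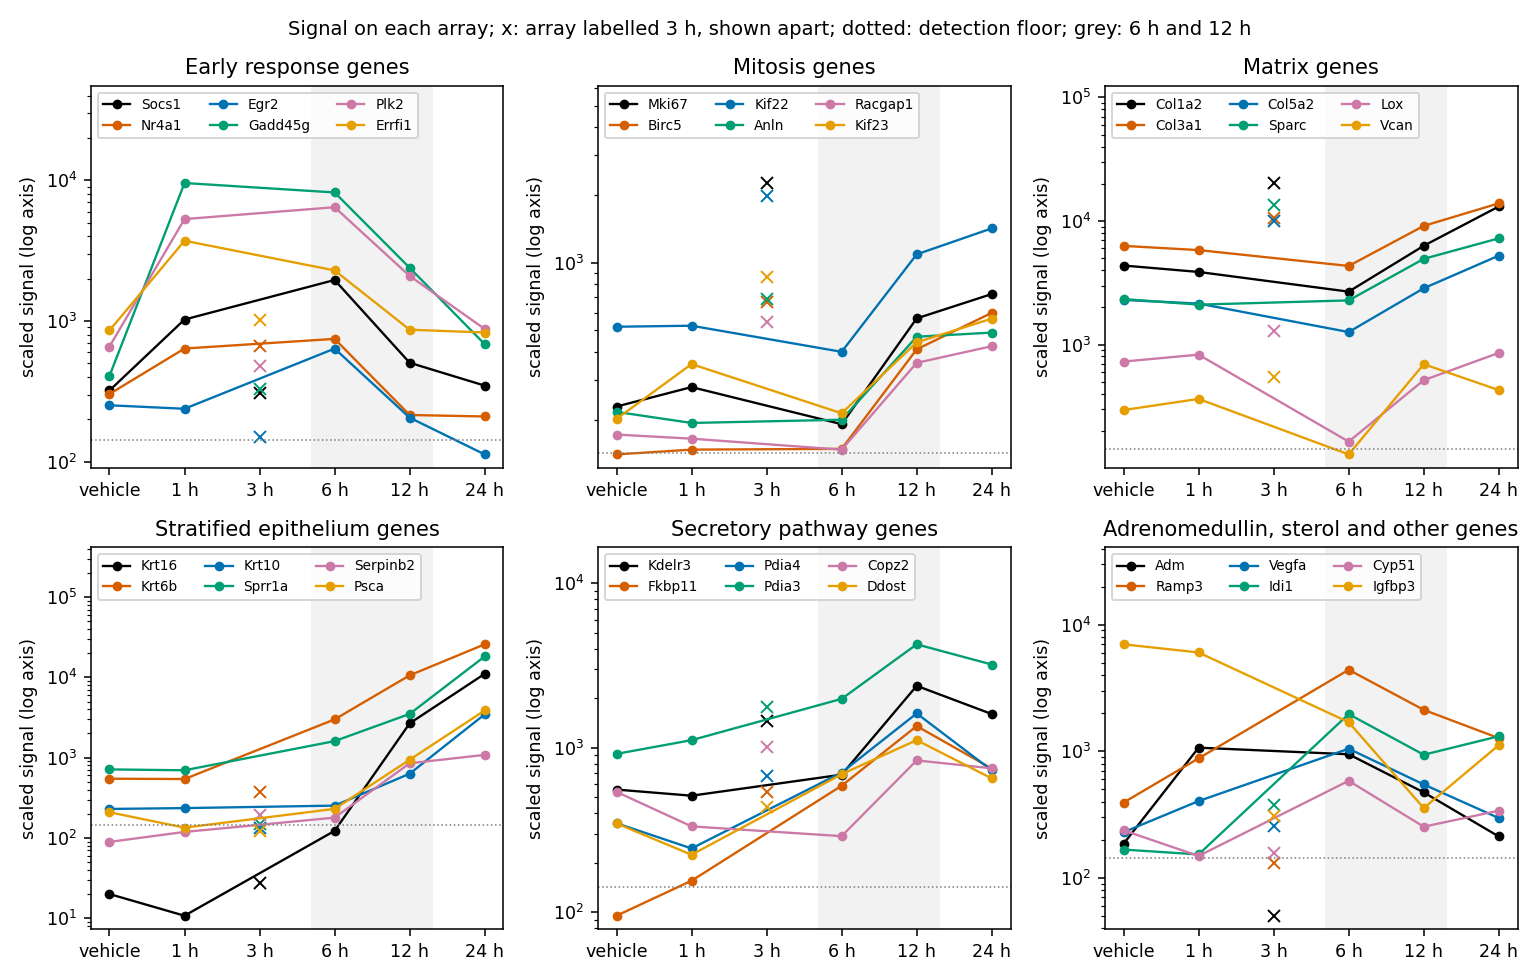
Scaled signal (log axis) on each array for genes of 6 groups, 6 genes each; lines join vehicle, 1, 6, 12 and 24 h, crosses show the array labelled 3 h, the dotted line is the detection floor of 142.8 and the grey band spans 6 h and 12 h. Early response genes drop within the band, whereas the mitosis, matrix, stratified epithelium and secretory genes shown climb within it.

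In the list of adrenomedullin and vascular permeability genes, 3 of 13 measured were at least 2-fold lower and none higher, with a median of -0.23. The Ramp family members Ramp1 (log2 0.24) and Ramp2 (0.14) and the VEGF receptor Kdr (0.21) lay slightly above 0. Adm encodes adrenomedullin, a vasodilator peptide, and read 186 on vehicle, 1067 at 1 h, 50.2 on the array with the 3 h label, 947 at 6 h, 473 at 12 h and 212 at 24 h. Its 12 h value was 2.0-fold below 6 h and 2.55-fold above vehicle. Ramp3, an accessory protein that makes a receptor for adrenomedullin, had 393, 879, 130, 4402, 2124 and 1269 in the same order. Adm was high already at 1 h, Ramp3 was highest at 6 h, and Ramp3 was 2.07-fold lower at 12 h. Nos3, the endothelial nitric oxide synthase, was below the floor on vehicle (59) and at 1 h (59.4), read 674 at 6 h and 275 at 12 h, 2.45-fold lower, and was below the floor again at 24 h (67.2). Vegfa, which raises vessel permeability and growth, went from 1047 to 547, a difference of 1.92-fold that did not reach the minimum.

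The uterine estrogen target list largely kept its distance from vehicle. Of 33 genes measured, 5 were at least 2-fold lower at 12 h than at 6 h and none higher, with a median of -0.24. At 6 h 19 of them were at least 2-fold above vehicle and at 12 h 17, and the median against vehicle was 1.32 and 1.06. The list was written with earlier results of these data known, and both ratios use the same vehicle array. Its distance from vehicle is therefore not an independent result. Padi1, a peptidylarginine deiminase known to respond to estrogen in the uterus, read 297 on vehicle, 324 at 1 h, 47.5 on the array with the 3 h label, 2725 at 6 h, 1076 at 12 h and 1224 at 24 h. It was 2.53-fold lower at 12 h but stayed 3.62-fold above vehicle. Inhbb, the activin beta B subunit, had the highest ratio to vehicle at 6 h of the early responses followed here, with 141, 689, 51.5, 3604, 1945 and 327; its log2 ratio of 12 h to 6 h was -0.89, short of the minimum. Pgr, the progesterone receptor, was at 160 on vehicle, 870 at 6 h and 602 at 12 h, and Igf1, a growth factor of the stroma, at 1234, 1931 and 1483. Ltf, lactoferrin, which is known as a late estrogen product of the epithelium, read 2689 on vehicle, 1975 at 6 h and 1413 at 12 h.

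Enzymes of cholesterol synthesis read mostly lower at 12 h. Of 16 measured, 3 were at least 2-fold lower and none higher, 14 lay below 0, and the median was -0.29. Idi1, which isomerises isopentenyl diphosphate, read 167 on vehicle, 153 at 1 h, 375 on the array with the 3 h label, 1966 at 6 h, 938 at 12 h and 1314 at 24 h. It was 2.09-fold lower at 12 h than at 6 h and 5.62-fold above vehicle at 12 h. Cyp51, the lanosterol demethylase, was 2.31-fold lower (584 to 253, vehicle 237), and Msmo1, the next oxidase in the chain, 2.25-fold lower (806 to 358, vehicle 140). Sqle, squalene epoxidase, went from 1946 to 1008, with a log2 ratio of -0.95. At 24 h Cyp51, Msmo1 and Sqle read 339, 596 and 1628, above their 12 h values. The summed signal of the list was 13218 at 6 h, 9062 at 12 h and 14166 at 24 h, so 12 h was lower than both. When an offset was used in place of the floor, no gene of this list reached 2-fold. Fatty acid synthesis genes had a median of 0.11 over 10 measured, with none past 2-fold.

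Machinery for ribosomes and protein folding in the cytosol was slightly lower across its lists, with few genes past the minimum. Ribosome biogenesis held 45 measured genes, of which 38 lay below 0 and 1 was at least 2-fold lower, with a median of -0.30. Nop56, a core protein of box C/D small nucleolar particles, read 556 on vehicle, 496 at 1 h, 620 on the array with the 3 h label, 3063 at 6 h, 1511 at 12 h and 768 at 24 h. It was 2.03-fold lower at 12 h and 2.72-fold above vehicle, and 18 of the list were still at least 2-fold above vehicle, after 25 at 6 h. Bysl and Nop2, which serve the small and the large ribosomal subunit, went from 1993 to 1072 and from 2070 to 1186, both under 2-fold. Chaperones of cytosol and mitochondria had a median of -0.33 over 27 measured, 22 of them below 0, and Hspa1b, an inducible HSP70, was the 1 gene past the minimum, 2.09-fold lower (4253 to 2034, vehicle 1394). Medians were -0.18 for 19 translation factors, -0.09 for 33 genes of tRNA charging and amino acid supply, 0.17 for 5 polyamine genes, 0.00 for 32 proteasome genes and -0.10 for 29 splicing genes, with none past 2-fold in any of these lists. Srm, spermidine synthase, read 2991 at 6 h and 2135 at 12 h, against 368 on vehicle.

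Genes of mitosis were the clearest newly higher group. Of 42 measured, 12 reached 2-fold higher at 12 h than at 6 h and 1 reached 2-fold lower, 38 lay above 0, and the list median was 0.69, beside 0.02 over all genes. Against vehicle, 2 of them were past 2-fold upward at 6 h and 15 at 12 h, and the median went from 0.00 to 0.83. All 12 belonged to the newly higher class. The count of 12 was 2 with the higher detection floor and 3 with the offset, and many of these signals lay near the floor.

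Mki67, whose protein coats dividing chromosomes and marks cycling cells, read 229 on vehicle, 279 at 1 h, 2261 on the array with the 3 h label, 191 at 6 h, 565 at 12 h and 725 at 24 h. It was 2.96-fold higher at 12 h than at 6 h by its main probe set, and its second measured probe set gave a log2 ratio of 0.31, so the probe sets differ in size. Birc5 (survivin), a chromosomal passenger protein, was 2.77-fold higher, from 148 to 411, with 140 on vehicle and 598 at 24 h. Its partner Aurkb, the kinase of that complex, was below the floor at 6 h (79.6) and on vehicle (66), and read 346 at 12 h and 558 at 24 h, at least 2.42-fold higher.

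Among the 12 were genes of the cleavage furrow and the spindle midzone. Racgap1, a subunit of centralspindlin, went from 147 at 6 h to 358 at 12 h (2.43-fold), and its partner motor Kif23 from 214 to 442 (2.07-fold). Ect2, which activates RhoA at the furrow, was below the floor at 6 h (140) and read 323 at 12 h, at least 2.26-fold higher. Anln (anillin), a furrow scaffold, was 2.34-fold higher, from 200 to 468. On the vehicle array these 4 genes read 172, 202, 143 and 217, so 6 h and vehicle were close and 12 h stood apart. Of other list members at these structures, Prc1, which bundles midzone microtubules, had a log2 ratio of 0.78 and Incenp, the scaffold of the passenger complex, 0.16, both under 2-fold. Kif22, a chromosome-arm motor, was 2.71-fold higher, from 401 to 1089, by a probe set whose design code marks it as less specific. Nusap1 (2.16-fold), Smc2 (2.06-fold), Plk1 (2.06-fold) and Cks2 (2.01-fold) complete the 12; Nusap1 and Plk1 also rest on less specific probe sets, and the other measured Plk1 probe sets gave log2 ratios of -0.89 and 0.81. Mad2l1, a spindle checkpoint protein, went the other way, with 242 on vehicle, 439 at 1 h, 1134 on the array with the 3 h label, 1074 at 6 h, 504 at 12 h and 522 at 24 h, 2.13-fold lower at 12 h.

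Members just short of 2-fold were many. Lmnb1 (log2 0.97) and Top2a (0.89) followed, Ttk, below the floor at 6 h (113), was at least 1.84-fold higher, and Cdc20 (0.73), Ccnb2 (0.61), Ccna2 (0.59) and Cdk1 (0.66), which drive entry into and exit from mitosis, were each between 1.5-fold and 2-fold higher. DNA replication genes shifted less, with 34 of 41 above 0, a median of 0.35 and none past 2-fold. Chaf1a, which loads histones behind the fork, had the largest ratio of them, 173 at 6 h and 345 at 12 h, 1.99-fold. Against vehicle, the median of the replication list was 0.29 at 6 h and 0.63 at 12 h. Of 21 G1 cyclins and CDK inhibitors, 2 were at least 2-fold higher, with a median of 0.24: Ccng1, a p53-induced cyclin (451 to 946), and Cdk5, a cyclin-dependent kinase outside the cycle (238 to 505). On vehicle they read 335 and 642, so Ccng1 was newly higher and Cdk5 belongs to the recovered class.

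Promoters of the 12 mitosis genes were read from RefSeq sequence of the mouse assembly GRCm38.p6, 250 bases before to 50 after the start, and 11 of the 12 had an entry. Late cell cycle genes are known for a pair of short elements: the cell cycle genes homology region, with the core letters TTTGAA or TTTAAA, and the CCAAT box. Both strands were searched, and the motifs do not overlap in letters. TTTGAA was found in 8 of the 11 genes (72.7%), beside 17.9% of all 32851 promoters of the table and 14.5% of the genes measured on the arrays. CCAAT was found in 8 (72.7%), beside 37.4% and 42.7%, and TTTAAA in 2 (18.2%), beside 13.2% and 11.0%. Mitosis genes that were not past 2-fold held TTTGAA in 17 of 21 (81.0%) and CCAAT in 18 (85.7%), so the letters do not set the 12 apart from the rest of their list. Of 37 faded genes with an entry, 4 held TTTGAA (10.8%) and 20 CCAAT (54.1%). The palindromic estrogen response element was searched as GGTCA and TGACC with any 3 bases between. It was in none of the 11 or the 37 and in 0.07% of all promoters. None of the 4736 measured genes with an entry held it either, so its absence does not set the 11 or the 37 apart. A match is a description of letters and not a site of binding.

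The stretches below show where both elements lie close together, in Kif22 (chr7:127042401-127042500, minus strand), Kif23 (chr9:61946780-61946879, minus strand), Racgap1 (chr15:99651637-99651736, minus strand) and Mki67 (chr7:135716460-135716559, minus strand). Each is written 5′ to 3′ along the gene, the first 3 from base -80 to base 20 around the start and Mki67 from base -180 to base -81. Capitals mark CCAAT or TTTGAA on either strand, so that the reverse strand reads ATTGG or TTCAAA.
Kif22: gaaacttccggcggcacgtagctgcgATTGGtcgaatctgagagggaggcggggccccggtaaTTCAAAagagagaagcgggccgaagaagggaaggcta
Kif23: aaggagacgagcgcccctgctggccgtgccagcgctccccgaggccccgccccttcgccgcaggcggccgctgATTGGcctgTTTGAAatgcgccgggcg
Racgap1: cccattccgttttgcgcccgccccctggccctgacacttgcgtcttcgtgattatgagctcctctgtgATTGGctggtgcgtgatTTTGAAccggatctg
Mki67: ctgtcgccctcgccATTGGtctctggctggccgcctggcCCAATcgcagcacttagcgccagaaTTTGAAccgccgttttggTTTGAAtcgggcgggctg
These 4 were picked because both elements lie close together, and in each a CCAAT box is on the 5′ side of TTTGAA. The order is not fixed over the 12: Smc2 has TTTGAA at -145 and at 27, on both sides of its CCAAT at -119. Outside the printed stretch, Kif22 has a further CCAAT at -233 and a further TTTGAA at -215, both on the 5′ side of the CCAAT shown. Anln has TTTGAA without CCAAT, and Cks2 has CCAAT without TTTGAA.

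Several genes of the secretory pathway were higher at 12 h. Of 40 genes of folding and secretion in the endoplasmic reticulum, 4 were at least 2-fold higher and none lower, with 22 above 0, 18 below and a median of 0.14. Kdelr3, a receptor that returns escaped proteins to the endoplasmic reticulum, read 557 on vehicle, 511 at 1 h, 1447 on the array with the 3 h label, 685 at 6 h, 2375 at 12 h and 1601 at 24 h. It was 3.47-fold higher at 12 h than at 6 h, by a probe set that may read related genes. Fkbp11, a prolyl isomerase of that compartment, was below the floor on vehicle (95.4) and read 156 at 1 h, 540 on the array with the 3 h label, 587 at 6 h, 1353 at 12 h and 747 at 24 h, 2.30-fold higher. Pdia4 and Pdia3, which form disulfide bonds in new proteins, were 2.29-fold (706 to 1615) and 2.14-fold higher (1979 to 4244). Their relatives Pdia6 and P4hb, named after their values were seen, had log2 ratios of -0.50 and 0.05. Fkbp11, Pdia4 and Pdia3 had already been at least 2-fold above vehicle at 6 h and stood at least 9.48-fold, 4.65-fold and 4.63-fold above it at 12 h, the first against a vehicle value below the floor. Each of these 3 genes had its highest signal of the series at 12 h. Copz2, a subunit of the COPI vesicle coat, was newly higher, 2.88-fold, from 290 to 837, with 539 on vehicle.

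A minority of matrix genes were higher at 12 h. Of 42 matrix genes measured, 8 were at least 2-fold higher and none lower, while 22 lay above 0 and 20 below and the median was 0.05, so the list did not shift as a whole. Vcan, the proteoglycan versican, read 295 on vehicle, 363 at 1 h, 550 on the array with the 3 h label, 129 at 6 h, 693 at 12 h and 428 at 24 h. At 6 h it was below the floor, and 12 h was at least 4.86-fold higher. Lox, which crosslinks collagen and elastin, had 728, 828, 1285, 164, 514 and 855 in the same order, lowest at 6 h and 3.14-fold higher at 12 h.

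Of the collagen genes on the list, 4 fibrillar ones were past 2-fold. Col3a1 read 6285 on vehicle, 5813 at 1 h, 10605 on the array with the 3 h label, 4324 at 6 h, 9122 at 12 h and 13889 at 24 h, 2.11-fold higher at 12 h than at 6 h. Its other probe sets gave log2 ratios of 1.10 and 1.82, beside 1.08. Col1a2 was 2.35-fold higher (2679 to 6297, vehicle 4359), Col5a2 2.26-fold (1262 to 2854, vehicle 2293) and Col1a1 2.03-fold (9712 to 19757). At 24 h these read 13098, 5240 and 29086. Col1a2, Col5a2 and Col3a1 were 1.63-, 1.82- and 1.45-fold below vehicle at 6 h. At 12 h they were 1.44-, 1.24- and 1.45-fold above it, so part of each ratio spans a dip at 6 h. Second probe sets of Col1a1 and Col1a2 gave only 0.01 and 0.08, so both calls rest on 1 probe set, and Col1a1 was near vehicle at 6 h (10342 and 9712). Col5a1, fibrillar too, had a log2 ratio of -0.10, and the basement membrane and beaded collagens Col4a1, Col4a2, Col6a2 and Col6a3 had -0.09, -0.08, -0.05 and -0.20; these were named after their values were seen. Sparc, a collagen-binding protein, was 2.17-fold higher (2276 to 4937), and Timp1, an inhibitor of matrix proteases, 2.47-fold (732 to 1806), the latter already 2.11-fold above vehicle at 6 h. When each gene was taken as the median over its probe sets, 4 matrix genes in place of 8 were past 2-fold.

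Genes of stratified, cornifying epithelium included the largest ratio of 12 h to 6 h. Of 26 measured, 6 were at least 2-fold higher and 1, Padi1, lower, with 23 above 0 and a median of 0.38. At 6 h 12 of them were at least 2-fold above vehicle and at 12 h 17, and the median against vehicle was 0.85 and 1.64. Several belong to clustered families of near-identical genes (Sprr2, Krt6), whose reads on short probes may be shared, so single family members are uncertain. The list has 36 members on the array, and those not measured were below the floor at 6 h and 12 h. Among them were the keratins Krt5 (14.3 and 20.3), Krt14 (23.9 and 68.0) and Krt15 (8.6 and 10.4), and Ivl, involucrin (46.4 and 50.2). The counts above therefore cover only the detected part of the list.

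Krt16, a keratin of activated stratified epithelium, was below the floor on vehicle (19.9), at 1 h (10.7), on the array labelled 3 h (27.5) and at 6 h (122), and read 2676 at 12 h and 11094 at 24 h. Its 12 h value was at least 18.7-fold above 6 h, the largest ratio among all genes measured. Krt6b read 546 on vehicle, 541 at 1 h, 370 on the array with the 3 h label, 2997 at 6 h, 10618 at 12 h and 25864 at 24 h. It was 3.54-fold higher at 12 h than at 6 h and continued upward. Krt6a, already at 16315 at 6 h, read 19742 at 12 h and 31370 at 24 h, a log2 ratio of 0.28 from 6 h to 12 h. A second probe set of Krt6a gave 0.70. Sprr1a, a crosslinked envelope protein, was 2.18-fold higher (1607 to 3507, and 18269 at 24 h). Krt10 (252 to 630, 2.50-fold) and Sprr2d (203 to 470, 2.31-fold) were newly higher.

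Serpinb2, a protease inhibitor of keratinocytes and macrophages, was 4.76-fold higher, from 179 to 850, with 89 on vehicle and 1083 at 24 h. Psca, a surface antigen of several epithelia, read 209 on vehicle, 134 at 1 h, 123 on the array with the 3 h label, 230 at 6 h, 942 at 12 h and 3874 at 24 h, 4.10-fold higher at 12 h. For Krt16, Krt6b, Krt10, Sprr1a, Serpinb2 and Psca alike the 24 h signal was the highest of the series. Other members differed less between 6 h and 12 h: Krt13 read 2551 and 2796, Sprr1b 4825 and 5021, Krt1 146 and 160, and Krt17 654 and 917. Other measured probe sets gave log2 ratios of 0.08 for Krt13 and of 0.89 and 0.41 for Krt17. Markers of the simple uterine epithelium had a median of 0.05 over 21 measured, with none past 2-fold in either direction.

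**Figure D4:**
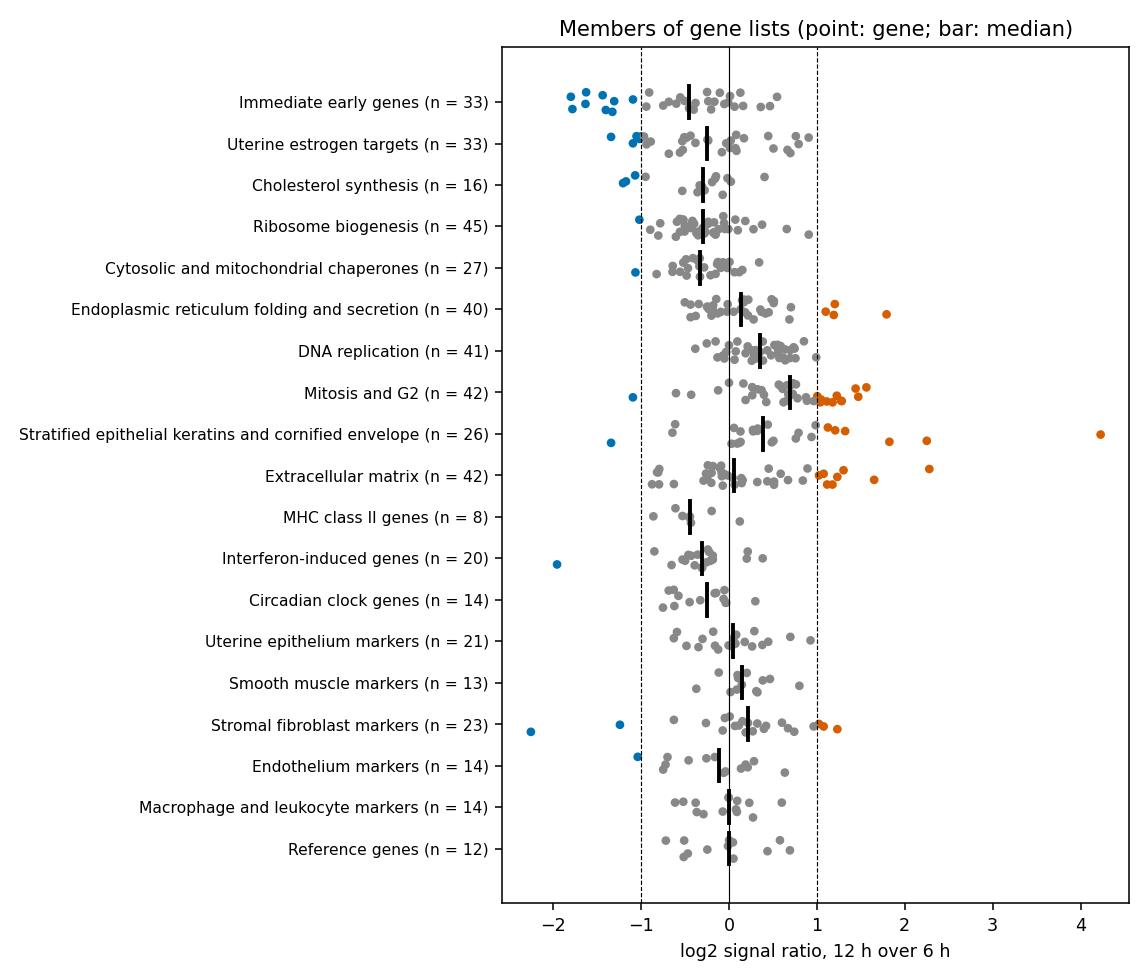
Log2 ratio of 12 h to 6 h for the measured members of 19 gene lists; each point is a gene (orange at least 2-fold higher, blue at least 2-fold lower, grey between), each vertical bar the list median, and the dashed lines mark 2-fold. Mitosis genes have a median of 0.69 and immediate early genes of -0.45, and both stand away from 0, where the reference genes have theirs.

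Recovery from an early dip took in receptors and metabolic genes. Igf1r, the receptor for IGF-I, read 2912 on vehicle, 2271 at 1 h, 1099 on the array with the 3 h label, 470 at 6 h, 1012 at 12 h and 1330 at 24 h. It was 2.15-fold higher at 12 h than at 6 h and still 2.88-fold below vehicle. Cpt1a, which commits fatty acids to mitochondrial oxidation, had 2292, 1892, 1721, 761, 2163 and 2589, 2.84-fold higher at 12 h and within 1.06-fold of vehicle. Rarg, a retinoic acid receptor, was below the floor at 6 h (65.8) and read 361 at 12 h, at least 2.53-fold higher. In the Wnt list, Fzd2, a receptor, was 2.48-fold higher (424 to 1051) and Apcdd1, an inhibitor, 2.29-fold (296 to 677), while the ligand Wnt4 was 2.03-fold lower (531 to 262); the median of its 23 measured genes was 0.08. Tfap2c, a transcription factor of epithelia, was below the floor at 6 h (103) and read 387 at 12 h, at least 2.71-fold higher, against 346 on vehicle. Pfkm, the muscle form of phosphofructokinase, was 2.05-fold higher (173 to 355), the 1 gene of 19 in glycolysis past 2-fold. Among the 39 recovered genes, 32 were under 2-fold from vehicle at 12 h, 6 were still at least 2-fold below and 1, Vcan, was above.

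A few genes went further down. Igfbp3, which binds and carries IGF-I, read 6996 on vehicle, 6032 at 1 h, 311 on the array with the 3 h label, 1696 at 6 h, 356 at 12 h and 1118 at 24 h. It was 4.77-fold lower at 12 h than at 6 h and 19.7-fold below vehicle, the 12 h array being the lowest of the estradiol times 1, 6, 12 and 24 h, and its second probe set gave a log2 ratio of -0.87. Inmt, a methyltransferase of indole amines, had 2065, 2024, 123, 518, 175 and 313, 2.96-fold lower. Serping1, the inhibitor of complement C1, was 2.13-fold lower (2218 to 1043) and C1qtnf3, a secreted C1q-like protein, 2.01-fold (354 to 177). With Igfbp3 lower, Igfbp2, another IGF-binding protein, was newly higher, 2.27-fold, from 208 to 474. Genes linked to FOXO and quiescence, 19 measured, had a median of 0.30 between 6 h and 12 h, and 13 of them were at least 2-fold below vehicle at 6 h and 11 at 12 h.

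Newly lower genes came from many roles. Sphk1, a kinase that makes sphingosine 1-phosphate, read 313 on vehicle, 245 at 1 h, 231 on the array with the 3 h label, 469 at 6 h, 146 at 12 h and 183 at 24 h, 3.21-fold lower at 12 h. Rab3a, a GTPase of regulated secretion, was 3.07-fold lower (511 to 166, vehicle 569) and Tradd, an adaptor of the TNF receptor, 3.04-fold (1385 to 456, vehicle 1476), the latter by a less specific probe set. Pdxk, pyridoxal kinase, read 4485 and 1772, 2.53-fold lower, but its second probe set gave -0.21, and Fbxw4, an F-box protein, was 2.96-fold lower with -0.17 from its second probe set. Twist2, a stromal transcription factor above vehicle at 6 h, belongs to the faded class: it read 2201 on vehicle, 4887 at 6 h and 2069 at 12 h, 2.36-fold lower. Aqp8, a water channel, went from 552 to 223, 2.48-fold lower, with 218 on vehicle; the list of water channels and ion transport had this gene alone past 2-fold among 14 and a median of -0.24.

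Genes of immunity were lower by small amounts. Interferon-induced genes had 17 of 20 below 0, 1 at least 2-fold lower, Socs1, and a median of -0.31. All but 1 of 8 MHC class II genes lay below 0, with a median of -0.45 and none past 2-fold; H2-Aa read 3560 on vehicle, 2390 at 6 h, 1317 at 12 h and 1306 at 24 h, and the invariant chain Cd74 7871, 5501, 3608 and 3158. General macrophage and leukocyte markers had a median near 0 (14 measured, none past 2-fold), and their summed signal was 10217 at 6 h and 9771 at 12 h, against 12365 and 8243 for the class II genes. The chemokine Ccl7, which draws monocytes, was 2.01-fold lower (454 to 226), the 1 gene of 10 chemokines and cytokines past 2-fold, with a median of -0.41. Complement had 1 of 11 lower, Serping1, with a median of -0.29.

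Most clock genes read lower at 12 h by less than the minimum. Of 14 measured, 13 lay below 0, the median was -0.24 and none was past 2-fold by its main probe set. A second probe set of Nfil3 gave a log2 ratio of -1.62 or lower (437 to 142, the latter below the floor), beside -0.63 for the main probe set. Other probe sets of Csnk1d gave -0.42, -2.06 and 0.00, beside -0.33. Per2, a repressor of the clock, read 240 at 6 h and 103 at 12 h, the latter below the floor, with 214 on vehicle and 87.7 at 24 h, and Nr1d2, a nuclear receptor of the clock, 393 and 245, with 1489 on vehicle and 920 at 24 h. Arntl, the partner of CLOCK, read 583 and 569, and 202 at 24 h. The sources used here do not give the clock hour of sacrifice, so time of day and time since injection cannot be told apart.

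Markers of cell types in the organ are given beside these changes. Smooth muscle markers had a median of 0.15 (13 measured) and a summed signal of 63527 at 6 h and 73229 at 12 h, and epithelial markers summed to 23963 and 26910. Stromal markers had a median of 0.22 (23 measured, 3 at least 2-fold higher, all collagens, and 2 lower, Igfbp3 and Twist2), and endothelial markers of -0.11 (14 measured), with Lyve1, a lymphatic receptor, 2.05-fold lower (446 to 217). Mast cell markers had a median of -0.69 over 4 measured, with Kit at least 2.06-fold lower (294 to 141, the latter below the floor), granulocyte markers of -0.50 over 6 and adipocyte markers of -0.33 over 10, with Pck1 2.04-fold lower (343 to 168). Skeletal muscle markers had a median of 0.11 over 8 and a summed signal of 3492 and 5229, with Acta1 2.71-fold higher (946 to 2566, vehicle 485), and exocrine pancreas genes had 1 of 5 higher, Ctrb1 (293 to 907, vehicle 1943, by a less specific probe set). The blood gene Hba-a1 had a log2 ratio of -0.75. The part of these small populations in any result was not tested.

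Remaining lists gave few calls. Steroid receptors and coregulators had a median of 0.15 over 15, with Rarg alone past 2-fold; insulin-like growth factor genes a median of 0.13 over 12; TGF-beta, BMP and activin genes a median of -0.14 over 30, with none past 2-fold. EGF receptor ligands and feedback genes had a median of -0.03 over 6, with Errfi1 lower. Oxidative phosphorylation had a median of 0.12 over 32, with Atp5g1 alone past 2-fold, lower by a less specific probe set whose counterpart gave -0.13. Cytosolic ribosomal proteins had a median of -0.23 over 19, with 16 below 0, and prostaglandin genes of 0.10 over 9, with none past 2-fold in either list.

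Genes commonly used as references differed as well. None of 12 was past 2-fold; they ran from -0.72 (Tbp) to 0.69 (Sdha), and B2m read 5042 and 5049. The Gapdh control probe sets differed by -0.00 to 0.04 and the actin control probe sets by -0.60 to -0.40. The 9 bacterial spike-in probe sets, added in fixed amount before hybridisation in the standard protocol, had a median log2 ratio of -0.73; they were not used for scaling, and their bearing on the ratios was not tested. Where a gene at 2-fold had a second measured probe set, 21 of 30 gave the same sign, against 577 of 951 over all genes with a second probe set, and 10 gave at least 1.5-fold in the same direction (33.3%, Wilson 95% interval 19.2% to 51.2%), against 108 of 951 (11.4%) over all, a set not chosen for its ratio. Both probe sets of a gene were read on the same arrays, so this does not stand in for a replicate.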

How the data were processed

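Whole-uterus RNA of 6 groups was measured on 1 Affymetrix U74Av2 array each. The deposited values are MAS5 signals, per the submitters' processing notes, with version and detection calls not given in the sources used here; they are probe set intensity on a linear scale, which the authors had scaled to a trimmed mean of 500.2 to 500.3 on every array. Of 12488 probe sets, 66 controls were left out, and 10833 with 1 gene symbol in the array's GEO platform annotation, updated through a RefSeq table of GRCm38.p6, gave 8251 genes, 2073 of them with several probe sets.

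Arrays were rescaled to 1 trimmed mean (2% cut at each end), signals under the 40th percentile of all values (142.8) were raised to it, and log2 ratios were taken. A gene was read by its brightest probe set (mean log2 over all arrays). The floor was reached by 58.9% of probe sets at 6 h and 59.4% at 12 h. With 1 array per group no test, SD or p-value was computed; the number of arrays limits the precision. Printed signals are those before the floor. The Wilson interval covers the counting of genes only.

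Genes named are the 15 highest and 15 lowest ratios and the 10 largest of each class among genes reaching the 60th percentile (352.65) on either array, up to 6 genes at least 1.5-fold apart per list, all circadian, keratin and mitosis genes, Esr1, Pgr, Igf1, Ltf, the reference genes and leading early responses; Hoxa11 and Krt19 were added as tissue checks. Members and the 46 lists (1271 symbols, of which 1032 were found as written, 18 by synonym and 221 not) were chosen with earlier results of these data known. The class rules were tested on simulated data. Alternatives were 8 planned settings (lower and higher floor, median scaling, quantile normalization, median of all probe sets, an offset equal to the floor, a vehicle and 1 h reference, and a 1.5-fold limit at 6 h) and 1 chosen after the data were seen, without the array labelled 3 h. Python 3.11.15, numpy 2.4.6, pandas 2.3.3, scipy 1.17.1 and matplotlib 3.10.9 were used.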

Additional observations from a re-analysis of the deposited data

Results flagged for a closer look

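Vcan, which encodes the matrix proteoglycan versican, lay on opposite sides of vehicle at both times. Its log2 ratio to vehicle was -1.05 or lower at 6 h, where the signal was below the floor, and 1.23 at 12 h. It was the 1 gene at least 2-fold below vehicle at 6 h and at least 2-fold above it at 12 h. With 1 array per time the difference between the times was not tested.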

How the results depend on the processing

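The detection floor moved the counts most. With the floor at the 20th percentile, 293 genes were higher and 217 lower at 12 h than at 6 h, and 84 were faded, 149 recovered, 133 newly higher, 110 newly lower, 11 higher still and 23 lower still. At the 60th percentile, 41 were higher and 46 lower, with 9 recovered, 26 newly higher, 13 newly lower, 2 lower still and 2 mitosis genes higher. With an offset in place of the floor, 49 were higher and 39 lower, with 22 faded, 16 recovered, 29 newly higher, 15 newly lower, 4 higher still and 2 lower still, and 3 mitosis genes were higher, 0 cholesterol genes lower and 2 estrogen targets lower. A higher floor or an offset shrinks ratios of dim genes by construction. With the median of all probe sets, 4 matrix genes were higher, and Mki67 had a ratio of 0.94, Lox 0.83, Timp1 0.65, Krt10 0.66 and Egr1 -0.72. With a limit of 1.5-fold at 6 h, 25 genes were newly lower. No named gene past 2-fold changed direction under the 7 settings that bear on single genes. List medians near 0 did change sign: insulin-like growth factor genes to -0.06 and exocrine pancreas genes to 0.49 with the lower floor, steroid receptors to -0.11 and extracellular matrix to -0.03 with the higher floor, and EGF genes to 0.00, macrophage markers to 0.02, reference genes to 0.02 and the proteasome to -0.01 with the median of probe sets. Median scaling moved the proteasome to -0.03, and quantile normalization moved pancreas genes to 0.01 and reference genes to 0.04. No paired analysis was possible because each group has 1 array. The number of arrays, and signals near the floor, limit every value.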
